A study of Arabidopsis thaliana with 7 samples.

Results

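Double-stranded RNA was sequenced from roots of Arabidopsis thaliana seedlings starved of phosphate and from roots of seedlings kept on phosphate. The low phosphate seedlings spent 7 d on phosphate medium and then 7 d on medium with 0 µM NaH2PO4, in which NaCl supplied the sodium. Control seedlings spent the same 7 d and then 7 d on 500 µM NaH2PO4, and complete root systems of both groups were harvested at an age of 14 d. The 4 double-stranded RNA libraries, 2 biological replicates a group, belong to 2 of the 7 samples of the series described here, and their read counts over 27416 genes were the data. Poly(A) RNA libraries of the same 2 media, 2 a group, were used as a second measurement. Calls were made over all genes that could be tested: of the 27416 genes, 17570 passed a filter on low counts and were tested, 5278 had a read but were filtered, and 4568 had no read in the 4 libraries. The line label of the double-stranded RNA samples is Col-0, the wild-type accession, whereas the growth text describes a Columbia-0 line that expresses a tagged ribosomal protein RPL18B from the 35S promoter. The labels do not settle whether these plants carried that transgene. The treatment text of the low phosphate sample repeats that of the control, so its condition was taken from its sample type. The labels do not state that replicates came from separate cultures, and the p-values measure the spread between these libraries.

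RNA molecules fold back on themselves, or pair with an antisense partner, and the paired stretches resist an RNase that cuts single strands. In double-stranded RNA sequencing, total RNA is depleted of ribosomal RNA and digested with such an enzyme (here RNase One), and what survives is made into a library. The level of a gene therefore reflects how much of its RNA there is and how much of it is paired, and the deposited counts cannot tell these apart. In whole roots, fewer cells of a type and less RNA per cell cannot be told apart either. Phosphate starvation is known in roots for a program controlled by PHR1-type transcription factors and held back by SPX proteins, which sense inositol pyrophosphates. The program takes in phosphate through PHT1 transporters, frees it from organic matter with purple acid phosphatases and nucleases, replaces phospholipids by galactolipids and sulfolipids, and lengthens root hairs. Long paired RNA is also cut by Dicer-like proteins into small RNAs, which Argonaute proteins load in part by their first base.

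Hairpins and paired transcripts are the molecules this assay retains, so the small RNAs that the authors' table of small RNA loci places inside genes are shown first. The first 2 are microRNA loci, the precursor of miR162 and a hairpin in its target DCL1, and the other 3 lie in the genes that rose most among those whose most abundant small RNA has 21 nt. The letter in capitals is the 5′ base.
MIR162a: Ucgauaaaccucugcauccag
DCL1 hairpin: Uuuucuucuacuucuugcaca
PXMT1: Uugaagaggacuuggaacuca
AT3G10815: Ucaaagauuaagcuauggagc
UCP5: Augagaauggagaccaaaagc
These are the most abundant RNAs at chr5:2634927-2635099, chr1:28533-28806, chr1:24873877-24874531, chr3:3386045-3386336 and chr2:9563303-9564775 (TAIR10). The MIR162a locus, on the minus strand, held 80919 small RNA reads, of which 68873 were the sequence shown. The hairpin inside DCL1, on the plus strand of the gene for the Dicer that cuts plant microRNA precursors, held 227 reads, of which 181 were the sequence shown. The table gives no strand for the loci in PXMT1, AT3G10815 and UCP5, which held 271, 332 and 268 reads. The sequence shown made up 26 of them in PXMT1, 162 in AT3G10815 and 10 in UCP5, so in PXMT1 and UCP5 no single RNA held most of the reads. The files do not state which libraries these read totals come from, so they carry no comparison between media.

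**Figure D1:**
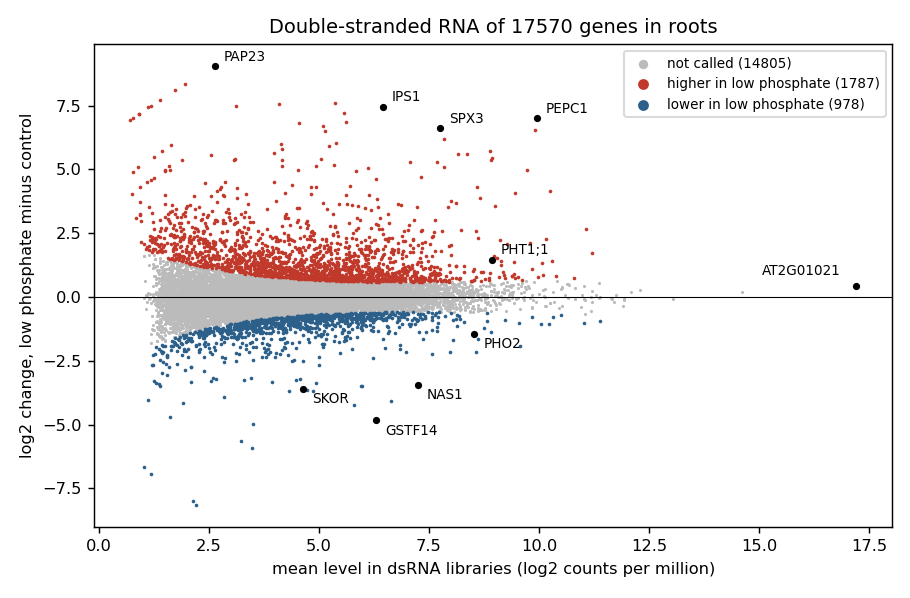
Each point is 1 of the 17570 genes tested, with its mean level over the 4 double-stranded RNA libraries (log2 CPM, counts scaled to library size) on the horizontal axis and its log2 change, low phosphate minus control, on the vertical axis. Of these, 1787 genes were called higher in low phosphate roots, 978 were called lower and 14805 were not called, and the 3 highest points are PAP23, RNS1 and PHT1;7.

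Most genes called in double-stranded RNA were higher in low phosphate roots. At an adjusted p of 0.05 (edgeR's quasi-likelihood test with Benjamini-Hochberg adjustment over all 17570 genes), 1787 genes rose, which is 10.2% of those tested, and 978 fell, which is 5.57%. Changes of more than 1 on the log2 scale were made by 1212 of the genes that rose and 557 of those that fell, and changes of more than 3 by 171 and 36. The median change of all tested genes was -0.02, and the smallest change called was 0.59 in size. Both low phosphate libraries lay above both control libraries in 4701 of all tested genes and below both in 4766, so groups that do not overlap, as in 2753 of the called genes, were also common among genes not called. The plot of change against level shows calls over a wide range of levels. AT2G01021, PYK10 and JAL34, among the 10 genes with most reads, were not called with all 4 libraries.

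The size of the response depended on the libraries and on the scaling. Leaving out the first control library, the deepest, left 624 genes higher and 195 lower, of which 615 and 193 had been called with all 4 libraries. Without the second control library 729 rose and 205 fell, and 706 and 199 of them had been called. Without the second low phosphate library the counts were 2925 and 2293. Scaling by library totals alone, with no correction for composition, moved the median of all genes to -0.20 and turned the split to 1315 higher and 1949 lower.

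Depth was 4683670 and 2735264 reads over genes in the low phosphate libraries, against 8249514 and 3246810 in the control libraries, and 3 reads, taken as the limit of detection, were worth between 0.335 and 1.14 CPM (counts scaled to library size) in a library. Replicates differed by a typical 18.1% in low phosphate roots and 9.22% in control roots beyond counting error. AT2G01021, beside ribosomal RNA genes in the reference, alone held 18.1% and 14.5% of reads in low phosphate roots, against 12.0% and 15.1% in control roots. It averaged 174413 CPM in low phosphate roots and 128323 CPM in control roots and was not called, with a log2 change of 0.44 ± 0.30 (edgeR adjusted p = 0.369), although it was called without the second low phosphate library. Also among the 10 genes with most reads, PYK10, a root beta-glucosidase of the ER bodies, had 8882 and 7501 CPM in low phosphate roots, against 8022 and 9209 CPM in control roots. The change was -0.07 ± 0.26 (edgeR adjusted p = 0.904). JAL34, a jacalin-like lectin, had 5919 and 5047 CPM in low phosphate roots, against 4357 and 4716 CPM in control roots. The change was 0.27 ± 0.26 (edgeR adjusted p = 0.542), and it too was called without the second low phosphate library (edgeR adjusted p = 0.00414).

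Among the 20 genes with the largest changes, 10 had no read in one of the 2 groups. PAP23, a purple acid phosphatase, had 12.4 and 15.6 CPM in low phosphate roots, against 0 and 0 CPM in control roots, at least 55.9-fold higher, and RNS1, an S-like ribonuclease that degrades RNA outside the cytosol, had 8.65 and 8.38 CPM in low phosphate roots, against 0 and 0 CPM in control roots, at least 35.1-fold higher. The phosphate transporter gene PHT1;7 had 7.48 and 6.86 CPM in low phosphate roots, against 0 and 0 CPM in control roots, at least 29.7-fold higher. AT1G03020 was at least 23.2-fold higher, AT2G14846 at least 19.6-fold higher and HDG8, a homeodomain factor of class IV, at least 18.4-fold higher. These bounds set the group with no read at 3 counts over both of its libraries, and the fitted changes of such genes depend on a prior count. PEPC1 (chr1:6090560-6092027, minus strand), which encodes a phosphatase that releases phosphate from phosphoethanolamine and phosphocholine, had the highest level of the 20, with 2081 and 1870.3 CPM in low phosphate roots, against 19.1 and 9.52 CPM in control roots. Its log2 change was 7.01 ± 0.32 (edgeR adjusted p = 4.08e-102). AT2G45135, which lies next to SPX3 in the reference annotation, had 93.0 and 75.0 CPM in low phosphate roots, against 0.447 and 0.297 CPM in control roots. The change was 7.61 ± 0.42 (edgeR adjusted p = 1.08e-71). HOL2, of a family of methyltransferases, had 44.4 and 25.9 CPM in low phosphate roots, against 0.112 and 0.297 CPM in control roots, 230.0-fold higher with an interval of 63.1 to 1910.0 (95% exact counting interval), with an edgeR adjusted p = 1.81e-44.

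In the other direction, AT5G26220, a gamma-glutamyl cyclotransferase of glutathione breakdown, had 0 and 0 CPM in low phosphate roots, against 6.26 and 8.92 CPM in control roots, at least 16.1-fold lower. ASL9, of the LOB-domain factors, had 0 and 0 CPM in low phosphate roots, against 7.15 and 5.95 CPM in control roots, at least 15.7-fold lower. LIL3:1, of the light-harvesting-like proteins, was at least 6.92-fold lower. SLAH1, which encodes a protein that helps load anions into the xylem, had 0.468 and 0 CPM in low phosphate roots, against 17.1 and 21.7 CPM in control roots, 63.3-fold lower with an interval of 17.3 to 526, with an edgeR adjusted p = 3.80e-21. UMAMIT29, of a family that exports amino acids, had 0.234 and 0.381 CPM in low phosphate roots, against 13.1 and 19.6 CPM in control roots, 51.3-fold lower with an interval of 14.0 to 427, with an edgeR adjusted p = 8.72e-18. GSTF14 (chr1:18458666-18459906, plus strand), a glutathione transferase, had 5.84 and 4.19 CPM in low phosphate roots, against 131 and 164 CPM in control roots, a change of -4.83 ± 0.30 (edgeR adjusted p = 3.74e-54), and had the highest control level of the 10 genes. AT4G07820 had 0 and 1.52 CPM in low phosphate roots, against 17.1 and 22.3 CPM in control roots, a change of -4.98 ± 0.53 (edgeR adjusted p = 4.07e-19), which DESeq2 did not call, and GASA5, of a family of small gibberellin-regulated peptides, had 0 and 0.381 CPM in low phosphate roots, against 3.80 and 5.35 CPM in control roots, 29.1-fold lower with an interval of 5.01 to 1170.0, with an edgeR adjusted p = 1.05e-05. These intervals, and all limits of detection, cover counting error only.

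**Figure D2:**
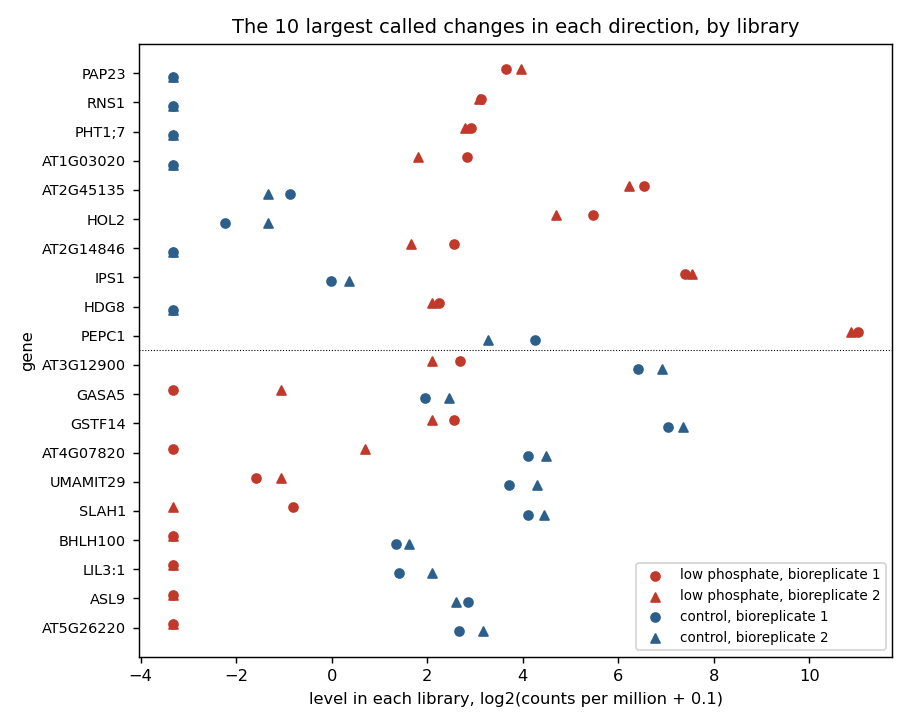
Level of the 10 genes with the largest called rise and the 10 with the largest called fall in each of the 4 libraries, as log2(CPM + 0.1), 1 gene a row, with low phosphate libraries drawn above control libraries in each row. The genes were picked among those whose groups do not overlap, and points at the left edge are libraries with no read.

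Among 25 tested genes for phosphate transport and its signalling, 15 rose, 1 fell and 9 were not called, and their median change was 2.10, beside -0.02 for all genes. The shares were 60% higher and 4% lower, beside 10.2% and 5.57% of all tested genes. SPX1 (chr5:6802372-6803625, plus strand), a sensor protein that holds PHR1 back, had 530.5 and 772 CPM in low phosphate roots, against 12.4 and 14.6 CPM in control roots. The change was 5.61 ± 0.29 (edgeR adjusted p = 5.40e-80). Its relative SPX3 had 439 and 422 CPM in low phosphate roots, against 5.48 and 2.08 CPM in control roots. The change was 6.62 ± 0.31 (edgeR adjusted p = 7.26e-95). Both genes were far higher in both low phosphate libraries than in either control library.

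Among the PHT1 transporters, which bring phosphate into the cell, PHT1;8 had 83.5 and 58.6 CPM in low phosphate roots, against 0.335 and 1.78 CPM in control roots. The change was 6.52 ± 0.39 (edgeR adjusted p = 9.16e-61). PHT1;9 had 87.0 and 75.0 CPM in low phosphate roots, against 1.90 and 2.97 CPM in control roots. The change was 5.17 ± 0.32 (edgeR adjusted p = 3.85e-54). PHT1;4 had 799 and 685 CPM in low phosphate roots, against 40.9 and 33.6 CPM in control roots. The change was 4.30 ± 0.27 (edgeR adjusted p = 7.45e-56). PHT1;1, the main transporter of roots with phosphate, had the highest control level of the 4, 645 and 783 CPM in low phosphate roots, against 241 and 279 CPM in control roots, and a smaller change of 1.46 ± 0.24 (edgeR adjusted p = 2.01e-08). Without the first control library PHT1;1 was not called (edgeR adjusted p = 0.127). Its neighbours PHT1;2 and PHT1;3 are near-identical in sequence, and reads could be split among them. PHO1, which exports phosphate to the xylem, had 306 and 264 CPM in low phosphate roots, against 270.0 and 315 CPM in control roots, overlapping groups and a change of -0.03 ± 0.23 (edgeR adjusted p = 0.95). PHO2, the ubiquitin-conjugating enzyme that removes phosphate transporters and is itself cleaved through miR399, was the 1 member that fell, with 214 and 184 CPM in low phosphate roots, against 489 and 589.8 CPM in control roots and a change of -1.43 ± 0.23 (edgeR adjusted p = 2.91e-08), not called without the second control library (edgeR adjusted p = 0.0665).

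The noncoding RNAs IPS1 and AT4 bind miR399 without being cut and so shield PHO2. IPS1 had 169 and 187 CPM in low phosphate roots, against 0.894 and 1.19 CPM in control roots. The change was 7.47 ± 0.36 (edgeR adjusted p = 1.11e-90). AT4 (AT5G03545) had 813 and 1069 CPM in low phosphate roots, against 17.8 and 17.3 CPM in control roots. The change was 5.74 ± 0.29 (edgeR adjusted p = 5.99e-82). Both control libraries of IPS1 were near the limit of detection, whereas AT4 was measured well above it in all 4 libraries.

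The genes that recover phosphate from organic compounds and remodel lipids rose nearly throughout. Of 25 tested members 24 rose and 0 fell, with a median change of 4.70, and between 23 and 25 rose in each fit that left out 1 library. Their summed level was 10512 and 10601 CPM in low phosphate roots, against 678 and 588 CPM in control roots. PS2, a phosphatase of pyrophosphate, had 2074 and 1724 CPM in low phosphate roots, against 21.1 and 19.0 CPM in control roots. The change was 6.55 ± 0.31 (edgeR adjusted p = 3.17e-94). MGDC, the monogalactosyldiacylglycerol synthase MGD3 that starts galactolipid synthesis under starvation, had 497 and 409 CPM in low phosphate roots, against 6.37 and 5.95 CPM in control roots. The change was 6.18 ± 0.30 (edgeR adjusted p = 1.37e-88). NPC4, a phospholipase C that removes phospholipid head groups, had 424 and 379 CPM in low phosphate roots, against 10.6 and 9.81 CPM in control roots, a change of 5.28 ± 0.28 (edgeR adjusted p = 3.13e-74), and the phospholipase D gene PLDP2 had 291 and 239.9 CPM in low phosphate roots, against 7.60 and 5.35 CPM in control roots. The change was 5.28 ± 0.29 (edgeR adjusted p = 4.33e-73).

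Whole families of these enzymes showed which branches moved. They overlap that list, with PAP24 in both, so their counts recount some of its genes. Purple acid phosphatases rose in 10 of 17 tested members and none fell, also without either control library. PAP17 had 344 and 279 CPM in low phosphate roots, against 14.1 and 8.63 CPM in control roots. The change was 4.70 ± 0.27 (edgeR adjusted p = 3.46e-64). PAP24 had 31.8 and 43.8 CPM in low phosphate roots, against 1.12 and 0.892 CPM in control roots. The change was 5.12 ± 0.39 (edgeR adjusted p = 3.14e-36). PAP22 changed by 4.31 ± 0.32 (edgeR adjusted p = 5.14e-39). PAP12, a secreted enzyme, had the highest control level of these 4, 375 and 333 CPM in low phosphate roots, against 42.3 and 45.2 CPM in control roots, and a change of 3.02 ± 0.24 (edgeR adjusted p = 8.59e-33). Glycerophosphodiesterases, which split deacylated phospholipids, rose in 6 of 8 members and fell in 0. The shares called higher were 58.8% of purple acid phosphatases, 75% of glycerophosphodiesterases and 23.8% of phospholipases D and C, beside 10.2% of all tested genes. GDPD3 had 18.0 and 18.7 CPM in low phosphate roots, against 0.335 and 0.595 CPM in control roots, a change of 5.39 ± 0.52 (edgeR adjusted p = 5.82e-23), whereas GDPD2 and GDPD5 changed by 1.70 ± 0.23 and 1.64 ± 0.23 (edgeR adjusted p = 8.21e-12 and 1.54e-10). Phospholipases D and C rose in 5 of 21, among them PLC2 with 319 and 273 CPM in low phosphate roots, against 71.8 and 70.2 CPM in control roots and a change of 2.06 ± 0.23 (edgeR adjusted p = 7.39e-17); 3 rose without either control library and 8 without the second low phosphate library. XPL1, which methylates phosphoethanolamine on the way to phosphocholine, had 183 and 128 CPM in low phosphate roots, against 34.8 and 29.7 CPM in control roots. The change was 2.26 ± 0.23 (edgeR adjusted p = 6.80e-20).

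**Figure D3:**
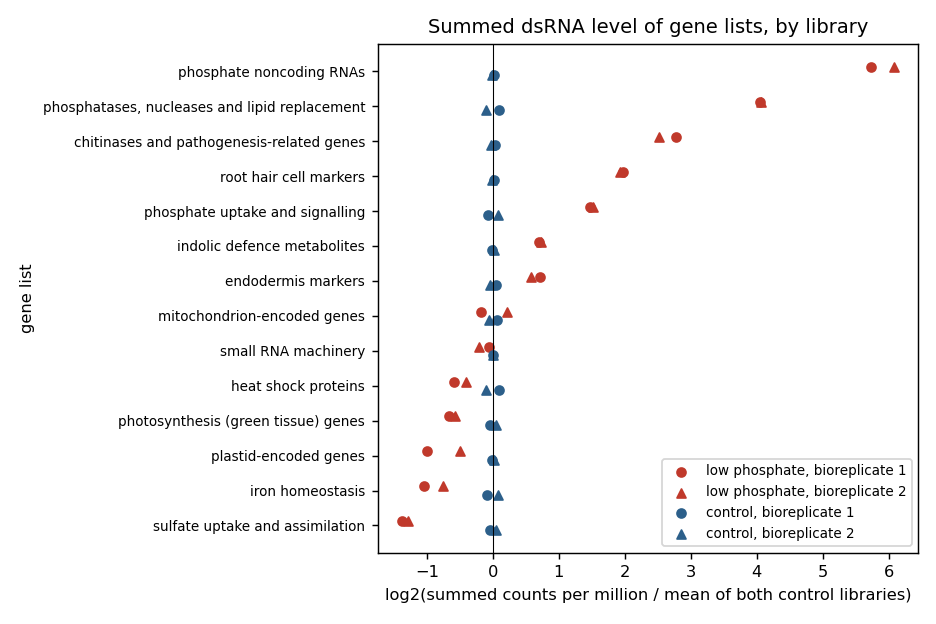
Summed level of 14 gene lists in each of the 4 libraries, as log2 of the summed CPM over the mean of both control libraries, with low phosphate points drawn above control points. Phosphatases and lipid genes sit near 4.05 and 4.07 in the low phosphate libraries and phosphate noncoding RNAs near 5.73 and 6.08, while sulfate genes sit near -1.37 and -1.30.

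More iron genes fell than rose. Of 24 tested members of iron homeostasis, 14 fell, 3 rose and 7 were not called, with a median change of -1.05. The shares were 58.3% lower and 12.5% higher, beside 5.57% and 10.2% of all tested genes. Without the first control library 7 fell and 1 rose, and without the second 9 fell and 0 rose; 8 fell when a mean of 50 reads was required. NAS1 (chr5:1457645-1458890, minus strand), a nicotianamine synthase that makes an iron chelator, had 23.6 and 27.0 CPM in low phosphate roots, against 262 and 287 CPM in control roots. The change was -3.45 ± 0.26 (edgeR adjusted p = 1.24e-38). AT3G12900, which has no symbol in the reference, had 6.31 and 4.19 CPM in low phosphate roots, against 85.3 and 120.2 CPM in control roots. The change was -4.22 ± 0.30 (edgeR adjusted p = 2.36e-42). IRT1, the iron transporter of the root epidermis, had 97.7 and 153 CPM in low phosphate roots, against 339 and 465 CPM in control roots. The change was -1.69 ± 0.23 (edgeR adjusted p = 2.70e-11). CYP82C4, a cytochrome P450 of iron-starved roots, had 76.0 and 109.7 CPM in low phosphate roots, against 369 and 443 CPM in control roots. The change was -2.14 ± 0.24 (edgeR adjusted p = 2.41e-17). In each of these 4 genes both low phosphate libraries lay under both control libraries.

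Transcription factors over these genes fell as well. FRU, the bHLH factor FIT that switches on IRT1, had 14.3 and 20.2 CPM in low phosphate roots, against 39.5 and 54.7 CPM in control roots. The change was -1.46 ± 0.26 (edgeR adjusted p = 9.08e-07). Its partner bHLH39 had 0.468 and 1.14 CPM in low phosphate roots, against 10.1 and 13.4 CPM in control roots. The change was -3.92 ± 0.56 (edgeR adjusted p = 9.59e-11). MYB10 had 1.64 and 0 CPM in low phosphate roots, against 7.27 and 11.9 CPM in control roots, a change of -3.18 ± 0.54 (edgeR adjusted p = 1.81e-07) that DESeq2 did not call. BHLH100 had no read in low phosphate roots and 2.46 and 2.97 CPM in control roots, at least 5.98-fold lower (edgeR adjusted p = 1.55e-04), but was not called without the first low phosphate library (edgeR adjusted p = 0.0699) or in 1 model with the poly(A) libraries (edgeR adjusted p = 0.077). BHLH101, at 0.701 and 0.381 CPM in low phosphate roots, against 3.91 and 2.68 CPM in control roots, was called with all 4 libraries at a change of -2.53 ± 0.73 (edgeR adjusted p = 0.00614) and lost its call with DESeq2 and without the first low phosphate or second control library. ZIP transporters of zinc and iron split, with 3 higher and 2 lower of 12. That is 25% and 16.7%, beside 10.2% and 5.57% of all tested genes. ZIP2, a transporter of zinc and manganese, had 11.0 and 18.3 CPM in low phosphate roots, against 47.5 and 54.1 CPM in control roots, a change of -1.83 ± 0.27 (edgeR adjusted p = 3.99e-10); 0 rose without either control library, and 1 without the first low phosphate library and with DESeq2.

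Sulfate uptake and assimilation fell in 10 of 13 members, rose in 1 and had a median change of -1.07. Without the first and the second control library 5 and 4 members fell. SULTR1;2, the main sulfate transporter of roots, had 216 and 162 CPM in low phosphate roots, against 557 and 633 CPM in control roots. The change was -1.65 ± 0.24 (edgeR adjusted p = 1.15e-10). APR3, which reduces activated sulfate, had 55.9 and 76.5 CPM in low phosphate roots, against 318 and 305 CPM in control roots. The change was -2.25 ± 0.24 (edgeR adjusted p = 4.16e-19). ATSDI1, a gene known from sulfur starvation, had 3.51 and 3.81 CPM in low phosphate roots, against 33.3 and 61.3 CPM in control roots. The change was -3.66 ± 0.34 (edgeR adjusted p = 2.79e-25). The 1 member that rose was SULTR1;3, a phloem sulfate transporter, with 34.8 and 40.8 CPM in low phosphate roots, against 0.894 and 0.892 CPM in control roots. The change was 5.35 ± 0.40 (edgeR adjusted p = 1.21e-37). Nitrogen genes were mixed, with 3 higher, 4 lower and 9 not called of 16. The shares were 18.8% higher and 25% lower, beside 10.2% and 5.57% of all tested genes. NRT1.1, the nitrate transporter and sensor, had 158 and 117 CPM in low phosphate roots, against 586 and 647 CPM in control roots, a change of -2.16 ± 0.24 (edgeR adjusted p = 2.29e-17), and AMT2, an ammonium transporter, rose by 1.53 ± 0.32 (edgeR adjusted p = 4.00e-05). NIR1, nitrite reductase, had 147 and 129 CPM in low phosphate roots, against 265 and 288 CPM in control roots, lower at an edgeR adjusted p = 1.79e-04. It was not called without either control library (edgeR adjusted p = 0.19 and 0.274). For the nitrogen list 1 gene rose and 1 fell without either control library, 1 rose and 8 fell under library totals alone, and 1 rose under the replicate block.

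Root hair markers rose in 15 of 17 tested members and fell in 0, with a median change of 1.95, and 13 and 12 rose without the first and second control library. The list of 18 members holds genes beyond the root hair markers named in the plan, RHS19 and PERK13 among them. The summed level of the list was 1067 and 1035 CPM in low phosphate roots, against 275 and 271 CPM in control roots. LRX1, a wall protein that shapes hair cells, had 111 and 96.0 CPM in low phosphate roots, against 13.1 and 19.9 CPM in control roots. The change was 2.71 ± 0.25 (edgeR adjusted p = 2.77e-25). PRP3, a proline-rich wall protein of root hairs, had 132 and 157 CPM in low phosphate roots, against 22.7 and 22.9 CPM in control roots, a change of 2.66 ± 0.24 (edgeR adjusted p = 5.29e-26), and the peroxidase gene RHS19 had 162 and 182 CPM in low phosphate roots, against 23.4 and 22.3 CPM in control roots. The change was 2.90 ± 0.24 (edgeR adjusted p = 1.75e-30). PERK13, a receptor-like kinase of hairs, changed by 2.50 ± 0.27 (edgeR adjusted p = 5.41e-18).

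Cell wall families followed in part. The shares called higher were 37.5% of arabinogalactan, extensin and proline-rich proteins, 27.3% of xyloglucan transferases and 12.5% of expansins. In the same order, 3.12%, 4.55% and 12.5% were called lower. Of all tested genes, 10.2% were called higher and 5.57% lower. Arabinogalactan, extensin and proline-rich proteins rose in 24 of 64 members and fell in 2; 11 and 13 rose without the first and second control library. EXT6 had 83.5 and 51.4 CPM in low phosphate roots, against 5.37 and 7.73 CPM in control roots, a change of 3.45 ± 0.28 (edgeR adjusted p = 7.56e-32), and EXT10 and HRGP1 changed by 2.91 ± 0.26 and 2.67 ± 0.24 (edgeR adjusted p = 2.02e-27 and 4.63e-26). Xyloglucan transferases, which cut and rejoin wall chains, rose in 6 of 22 and fell in 1, and 3 rose when a mean of 50 reads was required. XTH14 had 195 and 229.6 CPM in low phosphate roots, against 39.7 and 30.0 CPM in control roots, a change of 2.58 ± 0.24 (edgeR adjusted p = 2.49e-25), and XTH26 changed by 2.66 ± 0.37 (edgeR adjusted p = 2.39e-11). Expansins, which loosen walls, were split 2 to 2 among 16: the hair-cell genes EXPA18 and EXPA7 changed by 2.53 ± 0.28 and 1.49 ± 0.27 (edgeR adjusted p = 5.95e-18 and 5.47e-07), whereas EXPA15 had 27.6 and 16.4 CPM in low phosphate roots, against 66.1 and 80.3 CPM in control roots. The change was -1.69 ± 0.25 (edgeR adjusted p = 3.74e-10). Root hair markers moved with these wall genes, but the lists share members. EXPA18 and EXPA7 were planned as root hair markers and are also counted as expansins, so the counts are not separate. The part of hair cell number in the wall families was not tested.

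The lists of other cell types were smaller, with 8 endodermis, 4 stele and 5 meristem markers tested. The share called higher was 37.5% of endodermis markers and 0% of stele and of meristem markers, beside 10.2% of all tested genes. Endodermis markers rose in 3 of 8, among them CASP1, which scaffolds the Casparian strip, with 90.7 and 70.1 CPM in low phosphate roots, against 41.3 and 45.8 CPM in control roots and a change of 0.90 ± 0.23 (edgeR adjusted p = 0.00116), and ESB1, a protein of the same structure, with a change of 0.84 ± 0.22 (edgeR adjusted p = 0.00213). Neither was called without either control library, nor was any endodermis marker. Of 4 stele markers 1 fell: SKOR, a channel that releases potassium into the xylem, had 3.74 and 3.05 CPM in low phosphate roots, against 46.8 and 37.2 CPM in control roots. The change was -3.61 ± 0.34 (edgeR adjusted p = 4.88e-24). The 5 meristem markers gave 0 calls in either direction with edgeR and with DESeq2, and 0 at an unadjusted p of 0.05.

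Genes known from defence were higher in part. The shares called higher were 57.1% of indolic genes and 50% of chitinase and pathogenesis-related genes, beside 10.2% of all tested genes. In the same order, 7.14% and 10% were called lower, beside 5.57% of all tested genes. The lists of indolic metabolites and of chitinases and pathogenesis-related genes were added after values had been seen, so their counts are descriptions. Of 14 indolic genes 8 rose and 1 fell, and of 10 chitinase and pathogenesis-related genes 5 rose and 1 fell; without either control library the indolic count was 4. HCHIB, a basic chitinase, had 1551 and 1099.9 CPM in low phosphate roots, against 85.4 and 69.9 CPM in control roots. The change was 4.09 ± 0.27 (edgeR adjusted p = 7.05e-50). ChiC, another chitinase, had 400.5 and 500.0 CPM in low phosphate roots, against 36.8 and 40.4 CPM in control roots. The change was 3.55 ± 0.25 (edgeR adjusted p = 3.20e-42). PR4, which binds chitin, had 719.8 and 598 CPM in low phosphate roots, against 123 and 93.1 CPM in control roots. The change was 2.60 ± 0.24 (edgeR adjusted p = 1.68e-24). CYP71A12, of the camalexin and indole carbonyl nitrile pathway, had 454 and 307 CPM in low phosphate roots, against 68.8 and 56.2 CPM in control roots. The change was 2.60 ± 0.24 (edgeR adjusted p = 2.77e-25). Its close copy CYP71A13 had 11.2 and 9.90 CPM in low phosphate roots, against 0.559 and 2.38 CPM in control roots, a change of 3.21 ± 0.49 (edgeR adjusted p = 3.45e-09), and reads may be split between these genes. CYP81F2, of indole glucosinolate modification, and MYB51, the factor over that pathway, changed by 2.19 ± 0.23 and 1.91 ± 0.26 (edgeR adjusted p = 1.10e-18 and 1.33e-11).

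Detoxification families held calls in both directions. The shares called higher were 39.5% of glutathione transferases, 25.9% of cytochrome P450 genes, 25.6% of ABC transporters and 22% of UDP-glycosyltransferases. In the same order, 7.89%, 10.4%, 1.16% and 7.32% were called lower. Of all tested genes, 10.2% were called higher and 5.57% lower. Glutathione transferases, which conjugate glutathione to toxic compounds, rose in 15 of 38 members and fell in 3, with 7 and 6 higher and 1 lower without the first and second control library. GSTF6 had 273 and 192 CPM in low phosphate roots, against 56.3 and 41.0 CPM in control roots, a change of 2.24 ± 0.23 (edgeR adjusted p = 8.91e-20); GSTF7, a near copy with which reads may be shared, changed by 2.00 ± 0.23 (edgeR adjusted p = 8.94e-16). GSTU10 had 123 and 104 CPM in low phosphate roots, against 28.6 and 27.4 CPM in control roots. The change was 2.02 ± 0.24 (edgeR adjusted p = 8.94e-16). Cytochrome P450 genes, which oxidize many small molecules, rose in 35 of 135 and fell in 14, against 15 and 6 without the first control library and 21 and 8 without the second; 19 rose when a mean of 50 reads was required, and DESeq2 called 9 lower. CYP81D8 had 71.5 and 59.8 CPM in low phosphate roots, against 5.25 and 4.76 CPM in control roots. The change was 3.69 ± 0.29 (edgeR adjusted p = 1.38e-34). ABC transporters rose in 22 of 86 and fell in 1, with 6 and 8 higher without the first and second control library. ABCC3, a vacuolar transporter of conjugates, had 313 and 217 CPM in low phosphate roots, against 67.6 and 55.3 CPM in control roots. The change was 2.10 ± 0.23 (edgeR adjusted p = 1.50e-17). ABCB5 changed by 4.32 ± 0.51 (edgeR adjusted p = 1.65e-15), and ABCB4, which moves auxin in hair cells, by 1.39 ± 0.24 (edgeR adjusted p = 1.73e-07), not called without either control library (edgeR adjusted p = 0.146 and 0.0928). The medians of P450 and ABC genes, 0.16 and 0.14, turned to -0.03 and -0.04 under library totals alone. UDP-glycosyltransferases, which add sugars to small molecules, rose in 9 of 41 and fell in 3, with 2 and 3 higher without the first and second control library and 15 without the second low phosphate library. UGT87A2 changed by 1.85 ± 0.27 (edgeR adjusted p = 4.11e-10).

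Transcription factor and signalling families were mixed. The shares called higher were 24% of NAC factors, 24.5% of WRKY factors, 36.8% of CIPK kinases and 25.9% of UMAMIT transporters. In the same order, 4%, 14.3%, 15.8% and 11.1% were called lower. Of all tested genes, 10.2% were called higher and 5.57% lower. NAC factors rose in 12 of 50 and fell in 2, with 6 and 4 higher without the first and second control library and 19 without the second low phosphate library; NAC047 had 47.7 and 54.1 CPM in low phosphate roots, against 7.38 and 10.4 CPM in control roots. The change was 2.57 ± 0.28 (edgeR adjusted p = 2.36e-18). NAC080 had 6.08 and 3.05 CPM in low phosphate roots, against 21.1 and 19.6 CPM in control roots. The change was -2.08 ± 0.35 (edgeR adjusted p = 7.33e-08). WRKY factors rose in 12 of 49 and fell in 7, against 4 and 1 without the first control library and 7 and 1 without the second. WRKY75, known to act in phosphate starvation, had 10.5 and 9.52 CPM in low phosphate roots, against 2.46 and 2.08 CPM in control roots. The change was 2.10 ± 0.43 (edgeR adjusted p = 2.65e-05). WRKY45, known to act on PHT1;1, had 30.2 and 14.5 CPM in low phosphate roots, against 4.14 and 4.16 CPM in control roots. The change was 2.46 ± 0.34 (edgeR adjusted p = 1.47e-11). WRKY54 changed by 1.90 ± 0.30 (edgeR adjusted p = 1.59e-08). CIPK kinases, which act with calcium sensors, rose in 7 of 19 and fell in 3, with 4 higher and 0 lower without either control library; CIPK9, known from potassium nutrition, changed by 3.73 ± 0.48 (edgeR adjusted p = 4.10e-13). ERF and DREB factors rose in 4 of 25 and fell in 1, which is 16% and 4%, beside 10.2% and 5.57% of all tested genes. The count that rose changed when 1 library was left out. ERF2 changed by 2.95 ± 0.37 (edgeR adjusted p = 2.67e-13). UMAMIT transporters rose in 7 of 27 and fell in 3, with UMAMIT38 and UMAMIT14 changing by 3.04 ± 0.30 and 2.44 ± 0.26 (edgeR adjusted p = 1.58e-21 and 3.89e-19) and UMAMIT17 by -3.21 ± 0.33 (edgeR adjusted p = 2.78e-20); 3 and 4 rose without the first and second control library, and 6 fell without the first low phosphate library and under library totals alone.

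Hormone and stress lists were small. The shares called higher were 42.9% of low oxygen, 57.1% of touch and early stress and 22.2% of jasmonate genes, beside 10.2% of all tested genes. The shares called lower were 22.2% of jasmonate genes, 41.7% of cytokinin response regulators, 15.8% of SAUR genes and 26.7% of heat shock proteins. Of all tested genes, 5.57% were called lower. Low oxygen genes rose in 3 of 7: SUS4, a sucrose synthase, had 59.6 and 91.4 CPM in low phosphate roots, against 11.7 and 9.52 CPM in control roots, a change of 2.78 ± 0.26 (edgeR adjusted p = 3.09e-24), while ADH1 and AT4G33070, a pyruvate decarboxylase, the enzymes of ethanol fermentation, changed by 2.08 ± 0.34 and 1.76 ± 0.28 (edgeR adjusted p = 3.43e-08 and 6.15e-09); 5 rose without the second low phosphate library. Touch and early stress genes rose in 4 of 7, among them TCH3 by 1.43 ± 0.26 (edgeR adjusted p = 1.20e-06) and WRKY33 by 0.96 ± 0.22 (edgeR adjusted p = 2.85e-04), but 0 and 2 rose without the first and second control library, and WRKY33 was called in neither fit. In the jasmonate list of 9, 2 rose and 2 fell: AOC1, an enzyme of jasmonate synthesis, had 9.12 and 6.09 CPM in low phosphate roots, against 0.112 and 0.297 CPM in control roots, 49.1-fold higher with an interval of 13.0 to 415 (95% exact counting interval), with an edgeR adjusted p = 9.24e-12, and VSP2, a storage protein of the jasmonate response, had 3.04 and 5.33 CPM in low phosphate roots, against 29.5 and 47.6 CPM in control roots. The change was -3.24 ± 0.34 (edgeR adjusted p = 1.55e-19). Cytokinin response regulators fell in 5 of 12 and rose in 0, with ARR7, RR5 and ARR6 changing by -1.98 ± 0.35, -1.30 ± 0.24 and -1.35 ± 0.29 (edgeR adjusted p = 4.54e-07, 2.33e-06 and 5.65e-05); RR5 was not called without the first control library (edgeR adjusted p = 0.0741) nor ARR6 without the second (edgeR adjusted p = 0.103), and 2 fell without either control library. SAUR auxin genes fell in 3 of 19, AT5G50760 (SAUR55) by -1.76 ± 0.25 (edgeR adjusted p = 1.94e-10), and 1 fell without either control library and with DESeq2. Heat shock proteins fell in 8 of 30 and rose in 0; HSP90.1 had 40.0 and 58.3 CPM in low phosphate roots, against 216 and 136 CPM in control roots, a change of -1.87 ± 0.23 (edgeR adjusted p = 9.75e-14), and HSP70 and HSP101 changed by -1.36 ± 0.23 and -1.40 ± 0.24 (edgeR adjusted p = 2.52e-07 and 3.47e-07). HSP70 and HSP101 were not called without the first control library (edgeR adjusted p = 0.237 and 0.2). Without the first and second control library 1 and 4 heat shock genes fell, against 15 without the second low phosphate library, 13 under library totals alone and 5 under the replicate block.

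Plastid-encoded genes fell in 47 of 88 members and rose in 0, with a median change of -0.75; ATCG00190 and ATCG00180, which encode subunits of the plastid RNA polymerase, changed by -1.04 ± 0.23 and -1.04 ± 0.23 (edgeR adjusted p = 7.81e-05 and 7.92e-05) and were not called without either control library. Plastid genes held 0.568% and 0.844% of all reads in low phosphate roots, against 1.33% and 1.29% in control roots. The count was 2 and 0 without the first and second control library, 30 and 79 without the first and second low phosphate library, 30 in 1 model with the poly(A) libraries and 74 under library totals alone. Mitochondrion-encoded genes were called lower in 4 of 95, or 4.21%, beside 5.57% of all tested genes. Their shares of reads, 4.30% and 5.98% in low phosphate roots against 6.06% and 5.31% in control roots, overlapped. The count changed when 1 library was left out, and was 14 under library totals alone. Nuclear photosynthesis genes, the markers of green tissue, fell in 3 of 17 and rose in 1, at a summed 177 and 187 CPM in low phosphate roots, against 269.8 and 289 CPM in control roots; 1 and 0 fell without the first and second control library, and 6 under library totals alone. The shares called lower were 53.4% of plastid-encoded and 17.6% of nuclear photosynthesis genes, beside 5.57% of all tested genes. Of nuclear photosynthesis genes 5.88% were called higher, beside 10.2% of all tested genes. DESeq2 called 1 nuclear photosynthesis gene lower and 0 higher. The part of green tissue or of plastid RNA in other results was not tested.

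Among housekeeping families, tubulins rose in 1 of 15, or 6.67%, beside 10.2% of all tested genes. That member, TUB1, changed by 1.18 ± 0.22 (edgeR adjusted p = 4.18e-06) and lost its call when either control library was left out. Proteasome subunits rose in 2 of 31, or 6.45%, also under the 10.2% of all genes. The 6 tested actins gave 0 calls with edgeR and DESeq2 and 1 at an unadjusted p of 0.05. Ribosomal proteins outside the organelles fell in 2 of 41, or 4.88%, beside 5.57% of all genes, and rose in 0. RPL18 itself had 264 and 223 CPM in low phosphate roots, against 255 and 225 CPM in control roots, overlapping groups and a change of 0.02 ± 0.22 (edgeR adjusted p = 0.976). Aquaporins rose in 4 of 28 and fell in 3, which is 14.3% and 10.7%, beside 10.2% and 5.57% of all tested genes, with DELTA-TIP, a water channel of the vacuole, at 255 and 166 CPM in low phosphate roots, against 78.9 and 95.8 CPM in control roots and PIP2A, one of the plasma membrane, at 398 and 581 CPM in low phosphate roots, against 1015 and 969.9 CPM in control roots. Their changes of 1.28 ± 0.23 and -1.02 ± 0.24 (edgeR adjusted p = 3.98e-07 and 2.74e-04) were not called without either control library, and 7 aquaporins rose without either low phosphate library, against 1 without either control library. Histones rose in 3 of 29, or 10.3%, and fell in 1, with 1 higher without either control library and 5 without either low phosphate library. Among those that rose was the linker histone HIS1-3 of drought stress, with 65.0 and 53.7 CPM in low phosphate roots, against 16.7 and 11.0 CPM in control roots. The change was 2.05 ± 0.25 (edgeR adjusted p = 5.83e-14).

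**Figure D4:**
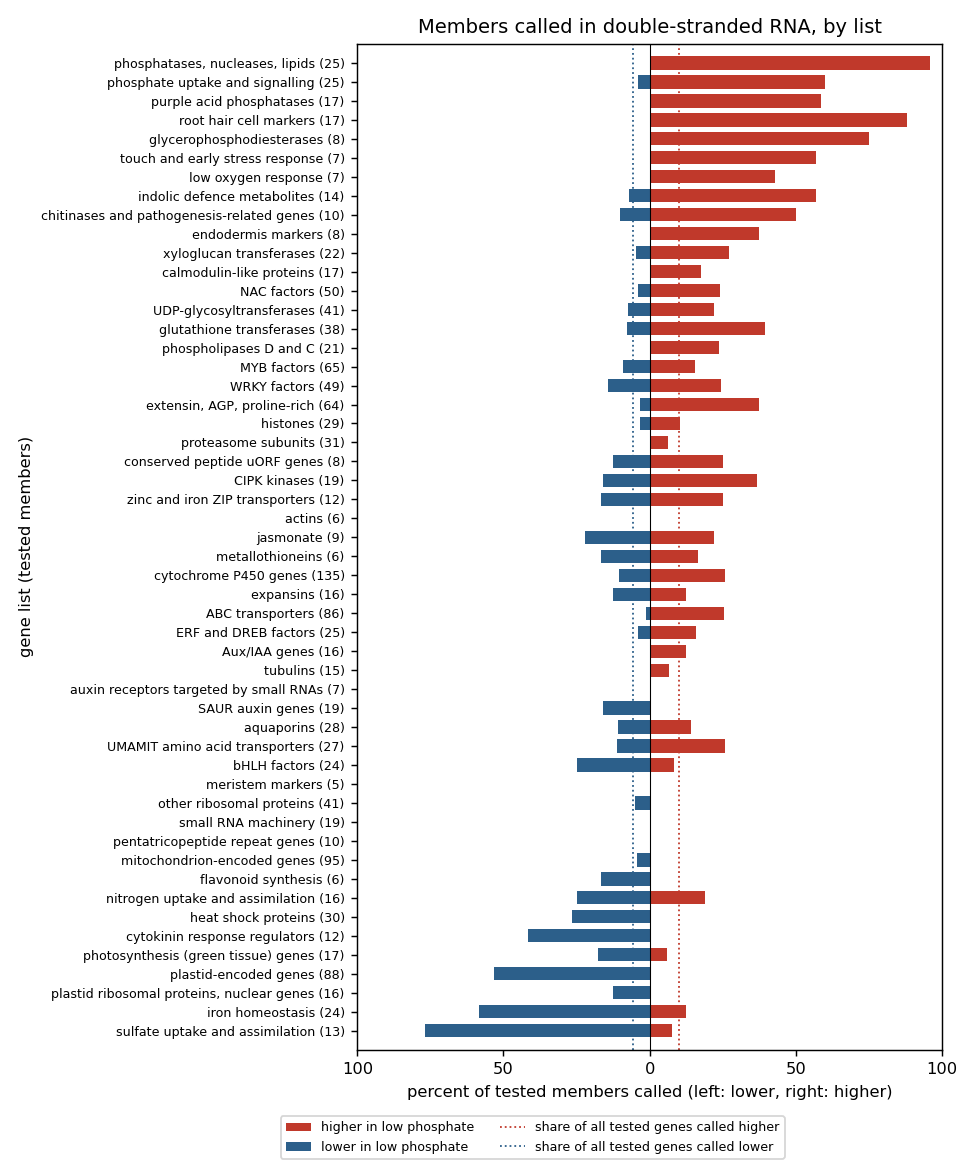
Percent of tested members of 52 gene lists called higher (bars to the right) and lower (bars to the left) in low phosphate roots, with the number of tested members in brackets and dotted lines at the 10.2% and 5.57% of all tested genes. Phosphatase and lipid genes, root hair markers and glycerophosphodiesterases reach farthest to the right, and sulfate, iron and plastid-encoded genes farthest to the left.

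The machinery that handles double-stranded RNA did not pass the test in either direction: of 19 tested genes for Dicer-like, Argonaute, RNA polymerase and related proteins, 0 rose and 0 fell at an edgeR adjusted p of 0.05, at an unadjusted p of 0.05 or with DESeq2, with a median change of -0.18. DCL1 had 78.6 and 62.8 CPM in low phosphate roots, against 84.5 and 83.6 CPM in control roots. The change was -0.24 ± 0.22 (edgeR adjusted p = 0.534). The MIR162a transcript, from which the first sequence above derives and whose microRNA targets DCL1, had 4.44 and 7.62 CPM in low phosphate roots, against 7.49 and 4.46 CPM in control roots, overlapping groups and a change of -0.12 ± 0.41 (edgeR adjusted p = 0.897). The 7 tested genes of a list named for auxin receptors targeted by small RNAs also gave 0 calls by each of these. Whether each member is a receptor was not checked.

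Of 15240 tested genes whose span the deposited tables of UTR regions give, 215 held a small RNA locus of 21 or 22 nt, and 8.84% of these rose and 6.05% fell, beside 9.69% and 5.24% of all 15240. PXMT1, a methyltransferase, had 46.5 and 35.4 CPM in low phosphate roots, against 4.58 and 6.84 CPM in control roots. The change was 2.93 ± 0.30 (edgeR adjusted p = 3.95e-20). AT3G10815 had 14.0 and 8.38 CPM in low phosphate roots, against 2.91 and 1.49 CPM in control roots. The change was 2.23 ± 0.42 (edgeR adjusted p = 2.11e-06). UCP5, a mitochondrial carrier, had 82.3 and 53.7 CPM in low phosphate roots, against 17.7 and 19.6 CPM in control roots. The change was 1.89 ± 0.25 (edgeR adjusted p = 1.10e-12). Their 21-nt RNAs are the last 3 sequences above. Genes with a locus of 23 or 24 nt rose in 14.9% of 583 and those with loci of other lengths in 14.3% of 3821, against 7.75% of the 10621 genes with no locus. The median level was 16.6 CPM in genes with a locus of 23 or 24 nt and 66.0 CPM in those with loci of other lengths, against 12.9 CPM in genes with none, and the part of level in these shares was not tested. Genes that overlap a gene on the other strand rose in 7.79% of 2027 and fell in 4.98%, against 9.98% and 5.28% of 13213 genes with no such overlap. The strand setting of the counting is not known, so reads of such overlapping genes cannot be told apart.

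Poly(A) RNA of roots on the same media showed how far changes in double-stranded RNA exceeded or fell short of those of the messenger. The difference of the 2 log2 changes was tested in 1 model over all 8 libraries: of 20482 genes, 354 changed more upward in double-stranded RNA, which is 1.73%, and 74 more downward, which is 0.361%. Without the first or second control library of double-stranded RNA these counts were 101 and 25, or 123 and 32, and without its first low phosphate library 128 and 17. Downward differences were 145 and 146 without the first and second low phosphate library of poly(A) RNA, and 112 without its second control library. The libraries come from different kits, poly(A) counts cover coding sequence and double-stranded RNA counts whole genes. The counting in each is the authors'.

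**Figure D5:**
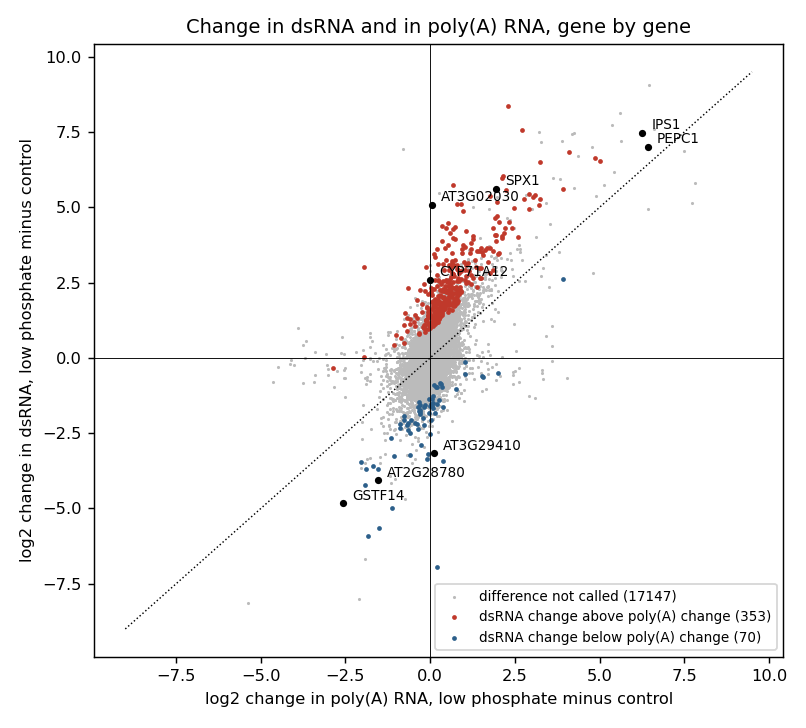
Log2 change, low phosphate minus control, of each gene in poly(A) RNA (horizontal) and in double-stranded RNA (vertical), with the diagonal of equal change. Of 17570 genes in both fits, 353 were called above poly(A) RNA and 70 below it, and 17147 were not called.

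The difference was most certain in 5 genes above and 5 below. AT3G02030 (chr3:344908-348847, plus strand), which neighbours the glycerophosphodiesterase gene SRG3, had 455 and 447 CPM in low phosphate roots, against 14.6 and 11.0 CPM in control roots. Its change was 5.09 ± 0.28 in double-stranded RNA and 0.06 in poly(A) RNA. The difference was 5.03 ± 0.32 (edgeR adjusted p = 3.41e-08). AT2G05510 (chr2:2015706-2016749, plus strand) had 2718 and 1895 CPM in low phosphate roots, against 126 and 134 CPM in control roots. Its changes of 4.15 ± 0.27 in double-stranded RNA and 0.60 in poly(A) RNA differed by 3.55 ± 0.29 (edgeR adjusted p = 9.46e-07). TI1, a trypsin inhibitor, differed by 3.59 ± 0.32 (edgeR adjusted p = 4.28e-06), PHT1;9 by 3.22 ± 0.34 (edgeR adjusted p = 4.14e-05) and AT3G03790 by 2.41 ± 0.26 (edgeR adjusted p = 4.14e-05). Below poly(A) RNA, GSTF14 differed by -2.27 ± 0.35 (edgeR adjusted p = 8.91e-04), and AT2G28780 by -2.52 ± 0.32 (edgeR adjusted p = 2.31e-04), beside poly(A) changes of -2.56 and -1.55. AT3G29410, AAH, which breaks down allantoate, and AGT, an aminotransferase of photorespiration, had changes of 0.10, -0.36 and 0.00 in poly(A) RNA. In double-stranded RNA their changes were -3.16 ± 0.43, -2.35 ± 0.28 and -2.51 ± 0.32. Their differences were -3.28 ± 0.45, -1.99 ± 0.30 and -2.52 ± 0.38 (edgeR adjusted p = 3.92e-04, 7.73e-04 and 7.91e-04). The differences of these 10 genes were called in each fit that left out a library, and with DESeq2.

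The median change of phosphatase, nuclease and lipid genes was 4.70 in double-stranded RNA, over the 25 members tested there. In poly(A) RNA it was 1.78, over 27 members in the model of all 8 libraries. The list stood above poly(A) RNA in 20 of these 27 members and below it in 0. Between 10 and 11 did so without either double-stranded RNA control library or its first low phosphate library. NPC4, PLDP2 and PAP24 differed by 2.05 ± 0.28, 2.52 ± 0.32 and 4.36 ± 0.52 (edgeR adjusted p = 3.44e-04, 1.68e-04 and 1.10e-04). Phosphate uptake genes stood above in 8 of 25 and below in 1, and above in 4 without either control library; PHT1;4 differed by 1.88 ± 0.27 (edgeR adjusted p = 5.24e-04). IPS1 and AT4 had changes of 6.27 and 5.12 in poly(A) RNA, and their differences of 1.23 ± 0.83 and 0.62 ± 0.44 (edgeR adjusted p = 0.56 and 0.584) were not called.

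Defence and detoxification genes were among the others. CYP71A12 had a change of -0.01 in poly(A) RNA and differed by 2.61 ± 0.30 (edgeR adjusted p = 9.68e-05). ABCC3 had a poly(A) change of 0.06 and differed by 2.04 ± 0.29 (edgeR adjusted p = 5.08e-04). CYP81D8, ChiC and HCHIB differed by 2.68 ± 0.32, 2.10 ± 0.26 and 2.15 ± 0.29 (edgeR adjusted p = 1.10e-04, 1.68e-04 and 3.35e-04). NAC047 and UMAMIT14 differed by 2.05 ± 0.29 and 2.11 ± 0.28 (edgeR adjusted p = 4.22e-04 and 2.74e-04), whereas the differences of SKOR and ZIP2 were -1.92 ± 0.34 and -1.80 ± 0.30 (edgeR adjusted p = 0.0033 and 0.00176). Iron genes gave 0 differences upward and 2 downward among 25, with 0 downward without either low phosphate library of double-stranded RNA and 1 without either of its control libraries. CYP82C4 and IRT1 had changes of -2.02 and -1.57 in poly(A) RNA, and their differences of -0.12 ± 0.28 and -0.11 ± 0.36 (edgeR adjusted p = 0.925 and 0.952) were not called. Root hair markers stood above in 4 of 18, in 0 and 1 without the first and second control library of double-stranded RNA, and in 7 with no filter on low counts. Of the 310 genes above poly(A) RNA that have such a span, 8 have an opposite-strand partner that rose in double-stranded RNA, against 140 of all 15240 genes tested.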

How the data were processed

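The deposited counts, whole numbers of reads per gene, were made by the authors. Per the submitters' processing notes, CASAVA 1.8, TopHat 1.3.1, Bowtie2 2.2.9 and the build TAIR10 were used. With the counter and its strand setting, both not given in the sources used here, reads may be shared between overlapping antisense genes and between near-identical copies. All 4 double-stranded RNA columns and the 4 poly(A) columns were used. From these counts, CPM levels were computed with TMM scaling, and genes were tested with edgeR 4.0.16 (R 4.3.3; glmQLFit and glmQLFTest, two-sided) after filterByExpr with a minimum count of 10 and a minimum total of 15. DESeq2 1.42.0, other scalings and filters, the replicate number as a block and leaving out each library were alternatives. Log2 changes are low phosphate minus control, with standard errors (± SE, n = 2 libraries a group), and p-values are Benjamini-Hochberg adjusted. The fits were checked on simulated data.

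The gene lists were chosen with earlier results of these data known. Lists of gene families were set by name pattern, and those of indolic metabolites and of chitinases were added after values were seen. Counts and medians of lists carry no test. Genes named are the 10 largest called changes in each direction whose groups do not overlap and whose mean level is at least 1 on the log2 CPM scale, at most 3 of each 10 without a symbol, called members of smallest p in each list, the genes with most reads, and the 5 of smallest p in each direction of the difference from poly(A) RNA. The genes of the 21-nt loci were named beside this rule after their values were seen. Gene coordinates (TAIR10) run between the outer ends of the 5′ and 3′ UTR entries in the authors' tables. Symbols came from a RefSeq table of TAIR10.1, in which 26719 of 27416 identifiers matched and 10376 had a symbol. A planned test of noncoding transcripts was not run.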

Additional observations from a re-analysis of the deposited data

How the results depend on the processing

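The counts of calls depended most on the libraries. Leaving out 1 library at a time gave between 624 and 2925 genes higher and between 195 and 2293 lower, and between 139 and 362 list members higher and between 39 and 289 lower. The difference from poly(A) RNA gave between 101 and 517 genes higher and between 17 and 146 lower. Where a group was left with 1 library, that library was assumed to vary like the others. DESeq2 called 1287 genes higher and 486 lower. Library totals alone gave 1949 genes lower and 257 list members lower. With no filter on low counts the difference from poly(A) RNA gave 651 genes higher and 222 lower. The cause of these shifts was not tested. RLE scaling kept each of these counts within 1.5 times. Scaling over nuclear genes and scaling without AT2G01021 did so for the counts of genes and list members in double-stranded RNA, and scaling without organelle genes and AT2G01021 for the difference from poly(A) RNA. Both scalings without AT2G01021 were chosen after seeing the data.

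Libraries with the same replicate number shared no deviation across genes, with a correlation of -0.0204. This single value cannot tell whether such libraries were grown or prepared together. With the replicate block 1564 genes were higher and 822 lower, 250 and 141 list members, and 447 and 103 in the difference from poly(A) RNA.

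Genes with changes near 0 turned sign without being called. Leaving out 1 library at a time gave a log2 change of between -0.14 and 0.079 for PHO1, between -0.20 and 0.055 for PYK10, between -0.14 and 0.046 for AT2G01008, one of the 10 genes with most reads, between -0.12 and 0.14 for RPL18 and between -0.51 and 0.39 for MIR162a. Under library totals alone RPL18 had a change of -0.17.

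The low phosphate libraries were shallower than the control libraries with the same number, and their replicates varied more. In a gene near 1 CPM a library held only a few reads. The noncoding test and its alternatives were not run, since the table of noncoding transcripts has no double-stranded RNA columns.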
